A study of Mus musculus with 8 samples.

Results

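In bone marrow-derived macrophages (BMDMs) of mice that lack Trex1, a set of 65 genes stayed at or below 50% of the wild-type (WT) level in every knockout library. The set was chosen from 54532 measured genes and does not hold every gene that did so. These genes were chosen on CPM, the count of a gene scaled to a common library total. A gene had to reach 5 CPM in both WT libraries, and each of the 6 knockout libraries had to lie at or under 0.5 times the lower WT value. Of 10250 genes with at least 5 CPM in both WT libraries, 71 (0.693%) met these criteria, and 6 of them (Acta2, Cnn1, Col2a1, Fbln2, Mmp23 and Rpl29) were set aside by symbol because collagens, other listed matrix and smooth muscle genes and ribosomal large-subunit genes had been left out. As the WT and knockout values chose the genes, the difference between WT and knockout is a description here and carries no test. The mirrored criteria, with at least 5 CPM in every knockout library and both WT libraries at or under 0.5 times the lowest of them, held for 62 genes.

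Polyadenylated RNA was sequenced from 8 libraries in 4 groups of 2. WT BMDMs and Trex1-knockout BMDMs given the vehicle DMSO (Trex1-KO) were set beside Trex1-KO BMDMs given H151 (Trex1-KO+H151) or SN-011 (Trex1-KO+SN-011), 2 small molecules that inhibit STING. All mice were on the C57BL/6J background and 6 to 8 weeks old, and marrow from tibia and femur was grown for 7 days in medium with L929 cell supernatant. Cells were exposed for 12 h, H151 at 500 nM per the labels. For SN-011 the labels name no dose, and the methods of the study give the same amount. WT mice were purchased, whereas Trex1-/- mice came from a separate breeding colony. The study describes the 2 libraries of a group as independent experiments. Neither the number nor the sex of the mice behind a library is given, and the labels do not say whether both came from separate animals, so the p-values measure the spread between these libraries.

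Trex1 is an exonuclease that degrades DNA in the cytosol. Without it, DNA is sensed by cGAS, which makes the messenger cGAMP, and STING then drives interferon and inflammatory genes. BMDM cultures start from whole marrow, which also holds stromal cells that make collagen, contractile proteins and the chemokine Cxcl12. Macrophages grow under macrophage colony-stimulating factor, which L929 cells secrete, while other marrow cells may persist in the dish.

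Total counts ran from 11845470 to 17284863 per library, so that the floor of 3 counts was worth 0.174 to 0.253 CPM. Such floors reflect counting error alone. Trex1 itself (chromosome 9, 109057933 to 109059734, GRCm38) had 0 counts in all 8 libraries, WT included, and lies within Atrip, so the knockout could not be checked on its own transcript. Atrip read 14.6 and 18.0 CPM in WT and 53.9 to 68.4 CPM in the 6 knockout libraries. All 9 macrophage markers reached 5 CPM in both WT libraries, and their summed level was 31743 to 33778 CPM in WT and 30530 to 31572 CPM in the knockout libraries. Summed neutrophil markers were at 9.75 to 10.2 CPM in WT and 64.7 to 99.95 CPM in the knockout libraries. The SN-011 libraries carry a treatment text of their own in the labels, so any batch they form and the antagonist cannot be told apart.

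Of the 65 genes, 63 are protein-coding, 1 is the constant region of immunoglobulin M (Ighm) and 1 is a processed pseudogene (Gm10709). Their mean knockout level had a median of 34.8% of the WT mean. In 53 genes the mean knockout level was at or over 30% of WT, while the upper edge was set by the rule. The plot of members by library shows both. Only Gm10709, Pxylp1 and Plin4 had a highest knockout library under 0.3 times the lower WT library. The levels were low for many members: 26 had a mean under 10 CPM in WT and 35 a mean under 5 CPM in the knockout libraries. None was at 0 in all 6 knockout libraries. Efnb1 (ratio 0.499), Glb1 (0.499) and Msrb3 (0.497) lay just inside the limit on the ratio, and 3110039I08Rik (0.501), Prrx1 (0.502) and Shox2 (0.502) just outside. Cdkn2a (lower WT value 5.02 CPM), Rbms3 (5.19) and Gm10709 (5.33) lay just above the CPM minimum. Hoxa10 (4.84), Fst (4.84) and Plekhg4 (4.79) met the ratio but lay just below it.

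**Figure D1:**
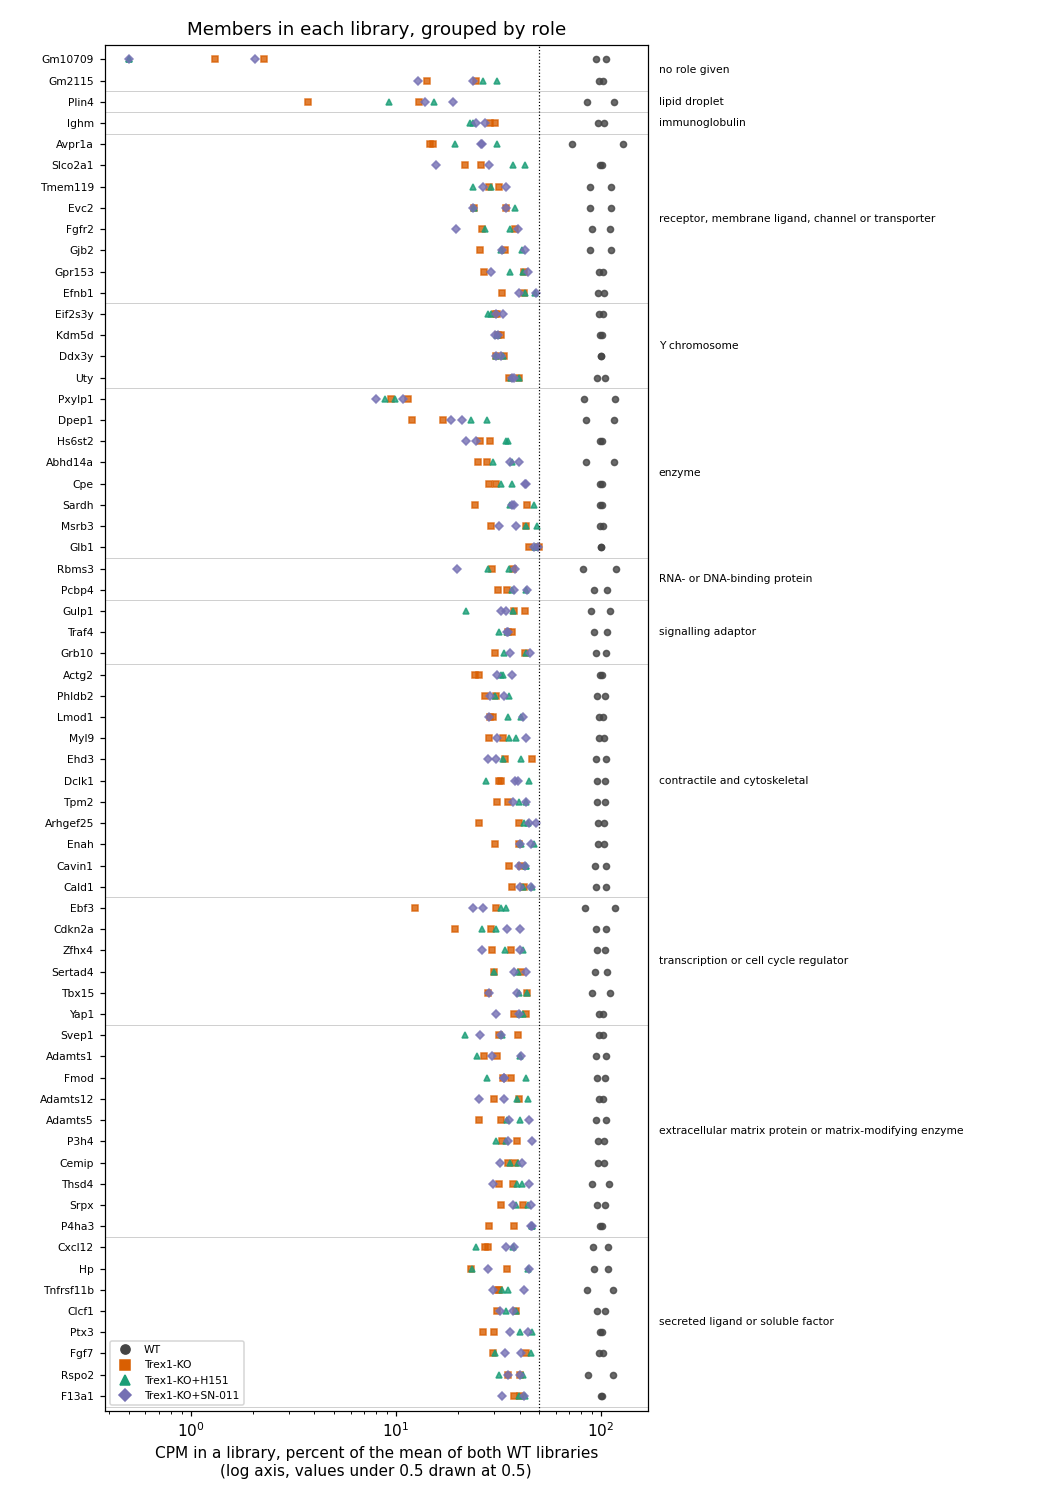
CPM of 64 of the 65 members in each of the 8 libraries, as a percent of the mean of both WT libraries (log axis, 1 point per library, the dotted line at 50%), grouped by role. The knockout points lie around 35% in most genes, under the limit that the rule set, with Gm10709, Pxylp1 and Plin4 below it and Glb1 closest to the dotted line.

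The secreted ligands and soluble factors were 8 genes, at a median of 36.2% of WT. F13a1, the A subunit of coagulation factor XIII (chromosome 13, 36867178 to 37050244), was the member with the highest WT level. It was measured at 389 and 384 CPM in WT, 146 and 156 in Trex1-KO, 154 and 165 in Trex1-KO+H151, and 127 and 163 in Trex1-KO+SN-011. Cxcl12, the chemokine that retains blood stem cells and B cell precursors in the marrow (chromosome 6, 117168535 to 117181367), was at 281 and 237 CPM in WT, 70.7 and 72.6 in Trex1-KO, 96.3 and 63.95 in Trex1-KO+H151, and 97.3 and 88.7 in Trex1-KO+SN-011. The 2 H151 libraries lay on both sides of the vehicle libraries for Cxcl12, while both SN-011 libraries lay above them. Tnfrsf11b, the decoy receptor osteoprotegerin that holds back osteoclast formation, was at 33.8 and 25.1 CPM in WT and 8.78 to 12.4 CPM in the knockout libraries. Rspo2, which strengthens Wnt signalling, was at 34.2 and 25.9 CPM in WT and 9.54 to 12.5 CPM in the knockout libraries. Fgf7, a fibroblast growth factor made by mesenchymal cells, was at 28.1 and 27.0 CPM in WT and 8.20 to 12.6 CPM in the knockout libraries. Clcf1, Ptx3 and Hp, which encode a cytokine of the interleukin-6 family, a soluble pattern receptor and haptoglobin, were under 10 CPM in every library.

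Receptors, membrane ligands, channels and transporters were also 8 genes, and their median was 30.4% of WT. Efnb1, a membrane ligand of Eph receptors, was the highest of them, with 33.2 and 31.1 CPM in WT and 10.5 to 15.5 CPM in the knockout libraries. Fgfr2, a fibroblast growth factor receptor, was at 9.43 and 7.72 CPM in WT and 1.69 to 3.36 CPM in the knockout libraries. Thus a ligand, Fgf7, and a receptor of the same growth factor family were both members. Avpr1a, the vasopressin V1a receptor, was the receptor with the widest spread in WT, at 11.3 and 6.31 CPM, and read 1.28 to 2.72 CPM in the knockout libraries. Tmem119, which is used as a marker of microglia in the brain and is also made by osteoblasts, was at 15.6 and 12.4 CPM in WT and 3.31 to 4.80 CPM in the knockout libraries. Slco2a1, the prostaglandin transporter, Gjb2, a gap junction connexin, Gpr153, an orphan receptor, and Evc2, a ciliary protein of the hedgehog pathway, had WT means under 10 CPM.

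The contractile and cytoskeletal group held 11 genes at 30.5% to 42.0% of WT. Cald1, which encodes caldesmon, an actin-binding protein that regulates contraction, was at 258 and 229 CPM in WT and 89.7 to 112 CPM in the knockout libraries. Tpm2, a tropomyosin, was at 88.4 and 81.5 CPM in WT and 26.5 to 36.6 CPM in the knockout libraries. Myl9, the regulatory light chain of smooth muscle myosin, was at 86.1 and 81.3 CPM in WT and 23.7 to 36.1 CPM in the knockout libraries. The actin filament and its motor were therefore represented by tropomyosin, caldesmon, a myosin light chain and an actin. That actin is Actg2, smooth muscle gamma actin (chromosome 6, 83512905 to 83536265). It was at 74.999 and 73.6 CPM in WT, 18.9 and 17.9 in Trex1-KO, 24.2 and 24.6 in Trex1-KO+H151, and 27.2 and 23.0 in Trex1-KO+SN-011. Both libraries of each antagonist lay above both vehicle libraries. Enah, which extends actin filaments, was at 63.6 and 59.99 CPM in WT and 18.8 to 29.0 CPM in the knockout libraries. Cavin1, which forms the coat of caveolae, was at 65.0 and 57.5 CPM in WT and 21.7 to 26.3 CPM in the knockout libraries. Lmod1, which nucleates actin filaments in smooth muscle, was at 13.3 and 13.9 CPM in WT and 3.88 to 5.67 CPM in the knockout libraries. Phldb2, Dclk1, Arhgef25 and Ehd3 made up the rest, although Ehd3 is known for membrane traffic at endosomes and its place in this group is uncertain.

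Of the 21 genes on a fixed list of actin, contractile and caveolar proteins, 18 reached 5 CPM in both WT libraries, and in 16 of these all 6 knockout libraries lay below both WT libraries. Over all genes with at least 5 CPM that share was 22.9%. The list was fixed with earlier results of these data known, so these shares are descriptions. The remaining 2 lay above WT in all 6. Among the 16 were 5 members (Cald1, Cavin1, Lmod1, Myl9 and Tpm2), which lay below WT by the rule. The others had knockout levels that were lower than WT but over the limit of the rule, or had been set aside by symbol. The median of the 18 genes was 46.7% of WT.

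Although collagens and several matrix families had been left out by symbol, 10 members encode matrix proteins or enzymes that modify the matrix, so the genes are not strictly a non-matrix set. They were Cemip, Adamts1, Adamts5, Adamts12, P3h4, P4ha3, Fmod, Svep1, Thsd4 and Srpx, at a median of 35.9% of WT. Cemip, which takes part in the breakdown of hyaluronan, was the highest at 97.5 and 90.4 CPM in WT and 30.2 to 38.8 CPM in the knockout libraries. Adamts1, a protease that cuts proteoglycans, was at 29.7 and 26.7 CPM in WT and 7.03 to 11.4 CPM in the knockout libraries. P3h4 and P4ha3 belong to the machinery that hydroxylates collagen, and Fmod binds collagen fibrils. For Svep1, 13.9% of the exonic length lies under exons of another gene, where reads may not be assigned to either.

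The regulators of transcription or the cell cycle were 6 genes. Yap1, the effector of the Hippo pathway that carries mechanical signals to the nucleus, was at 24.7 and 23.5 CPM in WT and 7.43 to 10.3 CPM in the knockout libraries. Tbx15, a T-box factor of limb and skeletal mesenchyme, was at 11.5 and 14.0 CPM in WT and 3.59 to 5.54 CPM in the knockout libraries. Ebf3, a factor of Cxcl12-making marrow stromal cells, was at 7.91 and 5.61 CPM in WT and 0.833 to 2.32 CPM in the knockout libraries. All 3 genes are known from mesenchymal cells. Zfhx4, Sertad4 and Cdkn2a, the last a cell cycle inhibitor locus, were the others. Grb10, an imprinted adaptor that restrains insulin receptor signalling, was at 56.1 and 49.9 CPM in WT and 16.0 to 23.8 CPM in the knockout libraries. Gulp1, an adaptor in the uptake of dying cells, and Traf4 were the other adaptors.

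The 8 enzymes ranged from 9.74% to 47.6% of WT, the widest range of any group with over 2 members. Pxylp1, a phosphatase that acts on xylose in the linker of proteoglycans (chromosome 9, 96823336 to 96892669), was at 11.9 and 8.35 CPM in WT, 0.960 and 1.15 in Trex1-KO, 0.894 and 0.994 in Trex1-KO+H151, and 0.810 and 1.10 in Trex1-KO+SN-011. Its knockout values rest on 11 to 18 counts per library. At the other end, Glb1, lysosomal beta-galactosidase, was at 129 and 128 CPM in WT and 57.0 to 64.0 CPM in the knockout libraries. Cpe, the carboxypeptidase that trims prohormones (chromosome 8, 64592542 to 64693054), was at 46.0 and 45.2 CPM in WT, 14.0 and 12.9 in Trex1-KO, 14.8 and 16.8 in Trex1-KO+H151, and 19.3 and 19.7 in Trex1-KO+SN-011, so that both SN-011 libraries lay above the other 4 knockout libraries. Dpep1, a membrane dipeptidase, was at 10.6 and 7.65 CPM in WT and 1.09 to 2.52 CPM in the knockout libraries. Hs6st2, which sulfates heparan sulfate, was at 9.13 and 9.33 CPM in WT and 2.03 to 3.25 CPM in the knockout libraries. Plin4, a coat protein of lipid droplets (chromosome 17, 56100591 to 56109803), was at 9.13 and 6.74 CPM in WT and 0.295 to 1.504 CPM in the knockout libraries, from 4 to 26 counts.

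Ighm (chromosome 12, 113418558 to 113422730) was at 41.7 and 38.9 CPM in WT, 12.3 and 11.5 in Trex1-KO, 9.59 and 9.28 in Trex1-KO+H151, and 9.84 and 10.9 in Trex1-KO+SN-011. It was the only 1 of 6 B cell markers that reached 5 CPM in both WT libraries. The defining B cell markers Pax5 and Ms4a1 had at most 2 counts in any library, and Cd79a lay between 0.265 and 0.769 CPM. Gm2115, a gene with no role given here, was at 10.2 and 9.68 CPM in WT and 1.27 to 3.09 CPM in the knockout libraries.

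Position on the chromosomes was not used by the rule. All 4 genes of the Y chromosome with at least 5 CPM in both WT libraries were members, out of 1570 Y genes in the files, of which 13 had any count. Ddx3y, an RNA helicase (chromosome Y, 1260771 to 1286629), was at 143 and 142 CPM in WT, 43.6 and 47.7 in Trex1-KO, 44.0 and 47.3 in Trex1-KO+H151, and 44.0 and 46.1 in Trex1-KO+SN-011. Eif2s3y, a subunit of a translation initiation factor (chromosome Y, 1010543 to 1028847), was at 123 and 118 CPM in WT and 33.9 to 40.2 CPM in the knockout libraries. Kdm5d, a histone demethylase (chromosome Y, 897788 to 956786), was at 65.0 and 66.9 CPM in WT and 19.96 to 21.5 CPM in the knockout libraries. Uty, a relative of another histone demethylase (chromosome Y, 1096861 to 1245759), was at 47.8 and 52.1 CPM in WT and 17.7 to 19.9 CPM in the knockout libraries. The 4 genes together made up 30.7% to 33.4% of their mean WT level in the 6 knockout libraries, a narrower range than that of the 54 members outside the Y chromosome and the surroundings of Trex1, whose sum was 32.3% to 39.5% of WT. The Y genes were absent from no knockout library.

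Each of the 4 Y genes has a close relative on the X chromosome that is expressed in both sexes. Ddx3x was at 606 and 598 CPM in WT and 604 to 678 CPM in the knockout libraries, and Kdm5c at 109 and 107 CPM in WT and 101 to 112 CPM. Eif2s3x was at 72.6 and 72.5 CPM in WT and 58.2 to 63.6 CPM in the knockout libraries, and Kdm6a at 60.6 and 72.1 CPM in WT and 56.0 to 63.0 CPM. None of the 4 passed the test between Trex1-KO and WT, a comparison in which 16.4% of tested genes were called. In the quasi-likelihood fit of edgeR their adjusted p was 0.161 for Ddx3x, 0.326 for Kdm5c, 0.283 for Eif2s3x and 0.848 for Kdm6a. Xist, the RNA made from the inactive X chromosome of female cells, was at 3.12 and 3.23 CPM in WT and 3.01 to 4.23 CPM in the knockout libraries. On the log2 scale it differed by 0.31 ± 0.24 between Trex1-KO and WT (SE, adjusted p = 0.457 by edgeR), and 12.6% of its exonic length lies under exons of other genes. Hence the Y genes were low in the knockout libraries without a called change of Xist or of the X partners.

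**Figure D2:**
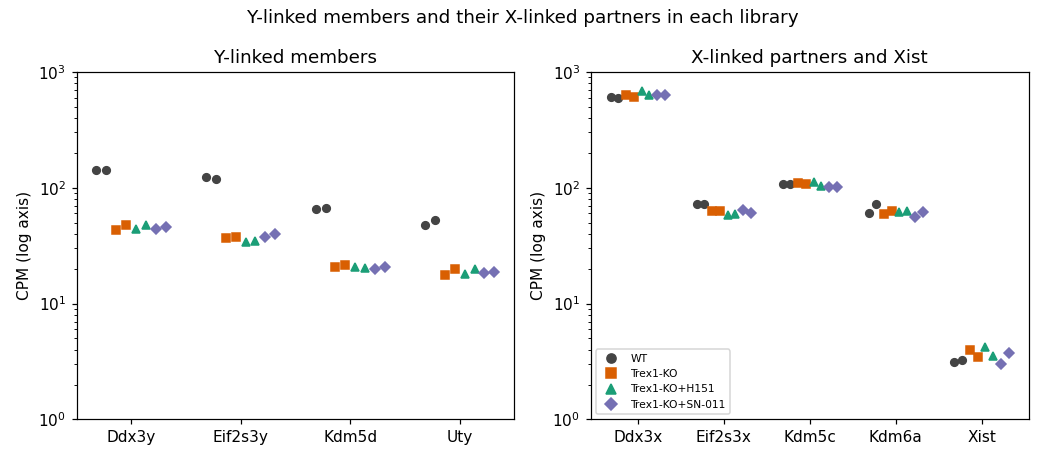
CPM in each of the 8 libraries (log axis, 1 point per library) for the 4 Y-linked members, left, and for their X-linked partners and Xist, right. Eif2s3x on the right is also lower in all 6 knockout libraries than in WT, by a smaller margin than the Y genes, and Kdm6a, Ddx3x, Kdm5c and Xist overlap between WT and knockout.

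Chromosome 9, which carries Trex1, held 10 of its 569 genes with at least 5 CPM (1.76%) as members, and no other autosome held over 0.926%. Within 30 Mb of Trex1 there were 7 members among 229 genes (3.06%), and beyond it 3 among 340 (0.882%). Outside this window and the Y chromosome there were 54 members among 10017 genes (0.539%). The window was drawn after the positions had been seen, so these shares are descriptions. Of these genes, 6 were Pcbp4 at 2.60 Mb, Abhd14a at 2.61 Mb, Glb1 at 5.38 Mb, Slco2a1 at 6.02 Mb, Rbms3 at 8.04 Mb and Pxylp1 at 12.2 Mb from Trex1. Pcbp4 and Rbms3 encode RNA-binding proteins, and Pcbp4 was at 23.3 and 20.1 CPM in WT and 6.79 to 9.43 CPM in the knockout libraries. The same window also held Rpl29, which met the numeric criteria and was set aside by symbol, and 5 of the 62 genes that were high in every knockout library. As the deleted gene lies in this window, linkage to Trex1 and loss of Trex1 cannot be told apart for these genes.

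**Figure D3:**
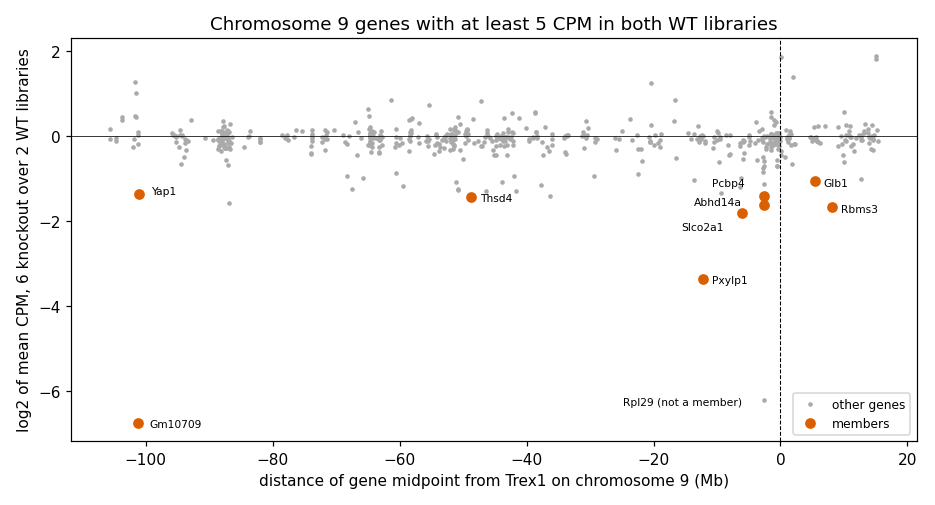
Chromosome 9 genes with at least 5 CPM in both WT libraries, by distance of the gene midpoint from Trex1 in Mb (horizontal axis) and log2 of the mean CPM of the 6 knockout over the 2 WT libraries (vertical axis). Members are the large points, 9 of 10 being drawn: 6 of these lie within 30 Mb of Trex1, and Pxylp1 and Gm10709 are the lowest members.

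Gm10709 (chromosome 9, 7751725 to 7752204), a processed pseudogene, was the member with the lowest knockout level. Its counts were 78 and 76 in WT and 0, 0, 0, 1, 2 and 2 in the 6 knockout libraries, all at or under the floor of 3 counts. Its 480 bases align to the transcript of Rpl29, a protein of the large ribosomal subunit, without a gap and with 4 mismatches, an identity of 99.2%. Rpl29 (chromosome 9, 106429454 to 106431568), which is no member, was at 299 and 287 CPM in WT and 3.20 to 4.73 CPM in the knockout libraries. A stretch of 100 bases is shown to let the likeness of both genes be read, with capitals at the 2 bases where they differ. It starts at base 201 of Gm10709 and of the Rpl29 coding sequence, in the strand of each gene, from GENCODE M21 transcripts on GRCm38.
Gm10709: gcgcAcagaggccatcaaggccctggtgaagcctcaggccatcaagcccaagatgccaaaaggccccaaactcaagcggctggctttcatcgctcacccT
Rpl29: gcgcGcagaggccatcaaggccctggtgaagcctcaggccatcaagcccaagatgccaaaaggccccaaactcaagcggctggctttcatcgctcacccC

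Of the stretches of 31 bases in Gm10709, 74.0% occur in Rpl29 and 94.7% in some other gene, so reads of Rpl29 and its copies could be counted for Gm10709 and its level is uncertain. It was the only member with over 10% of such stretches in other genes.

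Markers of other cell types were measured beside the members. Of 12 markers of fibroblasts or mesenchymal stromal cells, 6 reached 5 CPM in both WT libraries, and in all 6 the knockout libraries lay below both WT libraries. The summed level of the 12 was 2220 to 2434 CPM in WT, 860 to 1062 in Trex1-KO, 1114 to 1246 in Trex1-KO+H151 and 953 to 1138 in Trex1-KO+SN-011. Of these markers only Twist2 was at or under 3 counts in every library. For marrow reticular cells, 4 of 6 markers reached 5 CPM and 3 of those lay below WT in all 6 knockout libraries, 2 of them (Cxcl12 and Ebf3) being members themselves. The summed level of the 6 was 285 to 334 CPM in WT and 106 to 140 CPM in the knockout libraries, and Adipoq was at or under 3 counts. For smooth muscle cells or pericytes, 3 of 9 markers reached 5 CPM and 2 of those lay below WT. These 2 were Acta2 and Cnn1, which had met the numeric criteria before being set aside by symbol, so the rule fixed their place. The other, Mcam, had a higher mean in the knockout libraries than in WT (log2 ratio 0.62). The sum of the 9 was 514 to 559 CPM in WT and 171 to 266 CPM in the knockout libraries. The 2 chondrocyte and 3 osteoblast markers at 5 CPM also lay below WT, although the chondrocyte marker Col2a1 had itself met the numeric criteria. Hapln1 and Ucma were at 0 in all libraries. By contrast, the 4 endothelial markers at 5 CPM lay above WT in all 6 knockout libraries, as did 10.1% of all genes at 5 CPM, with a sum of 39.2 to 43.9 CPM in WT and 69.9 to 96.7 CPM in the knockout libraries. Summed adipocyte markers (33.8 to 35.2 CPM in WT, 38.7 to 52.2 CPM in the knockout libraries) and megakaryocyte markers (142 to 168 and 169 to 286 CPM) also lay above WT, and T cell markers below (34.5 to 35.1 and 18.3 to 21.2 CPM), each list with 1 marker at 5 CPM in both WT libraries. In bulk RNA, fewer cells of a type and less RNA per cell cannot be told apart, and the part of stromal cells in the levels of the members was not tested.

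Several signalling lists, fixed with earlier results of these data known, were read in the same way, against 22.9% of all genes at 5 CPM that lay below WT in all 6 knockout libraries and 10.1% that lay above. Members on a list lay below WT by the rule, so the counts that follow are descriptions. On the list of Hippo effectors and target genes, which holds Yap1, 12 of 15 genes at 5 CPM lay below WT in all 6 knockout libraries and 1 above, with a median of 46.2% of WT. All 8 mesenchymal transcription factors at 5 CPM lay below WT, Ebf3 and Tbx15 among them, at a median of 40.3%. For FGF and hedgehog signalling, 6 of 7 lay below WT and none above, at a median of 60.8%, with Fgf7 and Fgfr2 as members. For cell adhesion, with Efnb1, 11 of 16 lay below and 2 above. All 3 imprinted growth genes at 5 CPM lay below, with Grb10 as a member. For Wnt signalling, 5 of 7 lay below and none above. TGF-beta and BMP signalling had 12 of 20 below and 1 above, and the insulin-like growth factor axis 7 of 9 below and 1 above, with no member on any of these 3 lists. Of the 156 tested genes on these lists and the actin list, the edgeR quasi-likelihood test called 0 in any comparison among knockout libraries, where 2.23% of all genes were called with H151, 2.33% with SN-011 and 0.158% between the antagonists. At an unadjusted p under 0.05 there were 20 higher and 3 lower with H151 (all genes 4% and 5.36%), 20 higher and 4 lower with SN-011 (all genes 4.76% and 7.27%), and 2 higher and 3 lower with SN-011 than with H151 (all genes 4.27% and 4.64%).

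Libraries of a group differed together across the members. WT replicate 1 lay above WT replicate 2 in 53 of the 65 members (81.5%), compared with 51.2% of the other genes at 5 CPM. For Trex1-KO replicate 1 lay above replicate 2 in 48 members (73.8%, other genes 53.3%), for Trex1-KO+H151 in 44 (67.7%, other genes 53.8%) and for Trex1-KO+SN-011 in 39 of 65 (other genes 50.7%). The Y genes did not share this tilt, and in Trex1-KO none of the 4 was higher in replicate 1. The summed stromal markers tilted the same way as the members, with 2434 and 2220 CPM in WT replicates 1 and 2, 1062 and 860 in Trex1-KO, 1246 and 1114 in Trex1-KO+H151, and 1138 and 953 in Trex1-KO+SN-011. WT replicate 2 was the lower WT library in most members, and without it the rule would have taken 158 genes in place of 65, all 65 among them. Whether the tilt and the stromal markers have a common source was not tested.

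The antagonists were compared with the vehicle to ask whether the members respond to STING inhibition in Trex1-KO cells. The rule did not compare knockout libraries with each other, although it capped each of them, which limits how far a member could rise. All 65 members passed the filter on low counts over the 8 libraries, and 64 passed it over the 6 knockout libraries alone, the exception being Gm10709. With H151, no member was called by the edgeR quasi-likelihood test (adjusted p under 0.05), compared with 325 of 14591 tested genes (2.23%), of which 0.384% were higher and 1.84% lower. The median SE (log2) was 0.23 for the members and 0.13 for all tested genes, so changes of members were harder to call. DESeq2 also called none, the edgeR exact test called Actg2 alone, and at an unadjusted p under 0.05 there were 6 members higher and 1 lower. Of all genes, 4% were higher and 5.36% lower at that level, 9.36% together. The median log2 fold change of the members was 0.15, with 47 of 65 above 0 (72.3%), compared with a median of 0.00 and 50.3% over all tested genes. Both H151 libraries lay above both vehicle libraries in 22 members (33.8%, all genes 21.1%) and below them in 6 (9.23%, all genes 14.8%).

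With SN-011, 2 members were called, both higher than with vehicle (3.08% of members), compared with 340 calls among all genes (2.33%), of which 16 were higher (0.11%) and 324 lower (2.22%). Cpe rose by 0.51 ± 0.11 on the log2 scale (SE, 95% interval 0.27 to 0.75, adjusted p = 0.0283 by edgeR). Actg2 rose by 0.43 ± 0.10 on the log2 scale (SE, 95% interval 0.20 to 0.65, adjusted p = 0.0492 by edgeR). In both genes the 2 SN-011 libraries lay above the 2 vehicle libraries. Neither was called by DESeq2 (adjusted p = 0.0810 for Cpe and 0.117 for Actg2). With the replicate number as a block on the 6 knockout libraries, Actg2 was not called (adjusted p = 0.0716 by edgeR), while Cpe was (adjusted p = 0.0493 by edgeR). Without SN-011 replicate 1, or without either vehicle library, neither was called, and without SN-011 replicate 2 only Actg2 was. At an unadjusted p under 0.05 there were 6 members higher and none lower, whereas 4.76% of all genes were higher and 7.27% lower, 12% together. The median log2 fold change was 0.10, with 40 of 65 members above 0 (61.5%, all genes 52.1%). Both SN-011 libraries lay above both vehicle libraries in 17 members (26.2%), a share near that of all genes (27%), and below them in 6 (9.23%, all genes 17.5%).

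Members with a low unadjusted p in these comparisons were spread over several roles. With H151, the log2 fold change of Actg2 was 0.38 ± 0.10 (SE, adjusted p = 0.102 by edgeR), close to its value with SN-011. Tpm2 had 0.30 with H151 and 0.25 with SN-011, and Enah 0.30 and 0.28. Single libraries moved these values: Enah was at 0.12 with H151 and 0.10 with SN-011 without Trex1-KO replicate 2, at 0.49 and 0.48 without Trex1-KO replicate 1, and at 0.18 with SN-011 without SN-011 replicate 1. Tpm2 with SN-011 was at 0.15 without SN-011 replicate 2. The 3 genes all encode actin or proteins that bind it. Over the 11 contractile and cytoskeletal members the median log2 fold change was 0.24 with H151 and 0.25 with SN-011, and 10 of 11 were above 0 with each antagonist, compared with 47 and 40 of all 65 members. This group was assigned by hand, and the member below 0 with both was Ehd3 (-0.14 and -0.47). On the fixed list of actin, contractile and caveolar proteins the median over 20 tested genes was lower, at 0.17 with H151 and 0.12 with SN-011 on the log2 scale. The 8 enzymes had a median of 0.31 with H151, 7 of them above 0, and of 0.06 with SN-011, 5 of them above 0. The 2 comparisons share the vehicle libraries, so these values are not independent of each other. Dpep1 (0.79), Slco2a1 (0.72) and Ptx3 (0.58) were higher with H151 at an unadjusted p under 0.05, as were Cxcl12 (0.35) and Arhgef25 (0.49) with SN-011. None of these 5 passed after adjustment over all genes. Arhgef25 with SN-011 was at 0.83 without Trex1-KO replicate 1 and at 0.20 without Trex1-KO replicate 2. Cxcl12 with H151 was at 0.39 on the log2 scale without Trex1-KO+H151 replicate 2. That left-out library, at 63.95 CPM, lay below both vehicle libraries (70.7 and 72.6 CPM), and over all 8 libraries Cxcl12 was not called with H151. Ighm was the only member lower with H151 at an unadjusted p under 0.05, at -0.36 on the log2 scale (adjusted p = 0.290 by edgeR). For the 4 Y genes the median was -0.05 on the log2 scale with each antagonist.

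Beside these values, the summed fibroblast or stromal markers of both H151 libraries lay above those of both vehicle libraries, at 1114 to 1246 against 860 to 1062 CPM, while the SN-011 range of 953 to 1138 CPM overlapped the vehicle range. The summed smooth muscle or pericyte markers lay above vehicle with both antagonists, at 171 to 206 CPM with vehicle, 216 to 250 CPM with H151 and 219 to 266 CPM with SN-011. Over the 9 tested genes of that list the median log2 fold change was 0.45 with H151 and 0.34 with SN-011, and 4 of 9 were higher at an unadjusted p under 0.05 with each, none being called by edgeR. The summed marrow reticular markers, which include Cxcl12 and Ebf3, were at 109 CPM in both vehicle libraries, 106 to 140 CPM with H151 and 133 to 139 CPM with SN-011. Other lists moved as well. Summed endothelial markers lay above vehicle (69.9 to 82.0 CPM) with H151 (84.0 to 96.7 CPM) and with SN-011 (84.2 to 89.3 CPM), and chondrocyte and adipocyte sums also lay above vehicle with both antagonists. Summed megakaryocyte markers were at 172 to 191 CPM with vehicle, 267 to 286 CPM with H151 and 169 to 186 CPM with SN-011, and the osteoblast sum likewise lay above vehicle with H151 and overlapped it with SN-011. With H151, edgeR called 1 of 5 tested chondrocyte markers and 1 of 3 tested megakaryocyte markers higher, and with SN-011 0 of either. Of 9 macrophage markers, edgeR called 1 lower with H151 and 2 lower with SN-011, while their sum overlapped between vehicle and each antagonist. The part of these markers in the members' values, those of the contractile members included, was not tested.

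Between the antagonists, no member was called (23 of all genes, 0.158%) by the edgeR quasi-likelihood test or by DESeq2. At an unadjusted p under 0.05, Cpe was higher with SN-011 (log2 difference 0.29 ± 0.11, SE, 95% interval 0.05 to 0.53, adjusted p = 0.494), and Slco2a1 (-0.79), Hs6st2 (-0.58) and Msrb3 (-0.38) were lower. The difference of Slco2a1 was -1.34 without SN-011 replicate 1 and -0.48 without SN-011 replicate 2. Of all genes 4.27% were higher and 4.64% lower, 8.91% together. Both SN-011 libraries lay above both H151 libraries in 6 members (9.23%, all genes 20.7%) and below them in 11 (16.9%, all genes 19%). The median difference over the members was -0.02. The 2 antagonists were therefore not shown to differ on these genes, which does not show that they act alike.

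**Figure D4:**
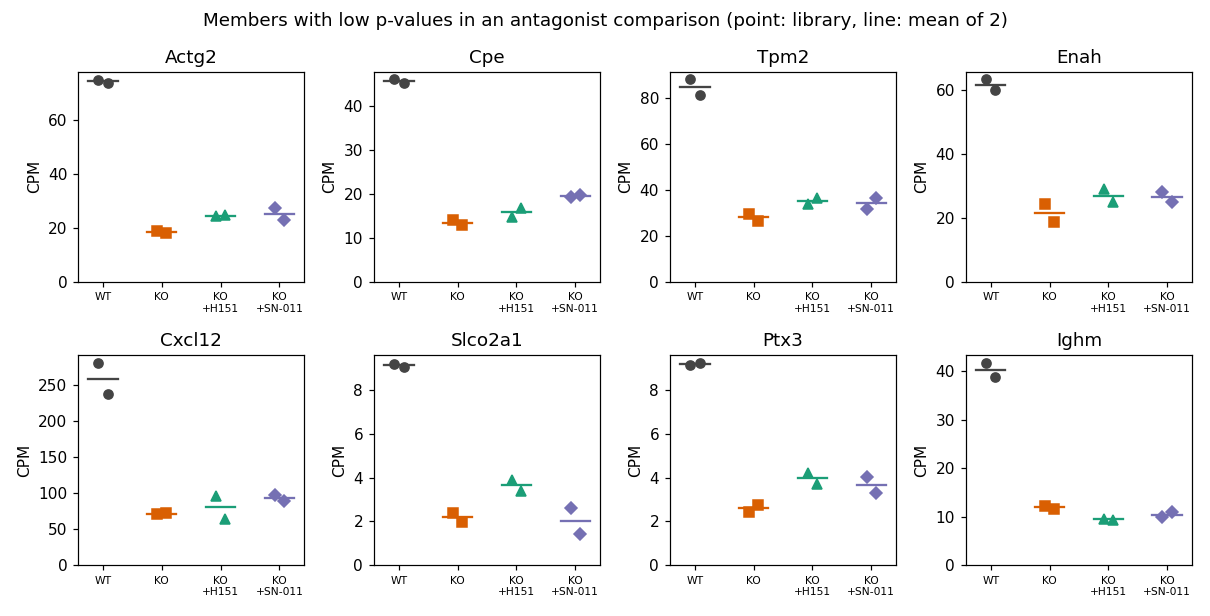
CPM in each of the 8 libraries (1 point per library, line at the mean of 2, axes from 0) for 8 members with a low unadjusted p in an antagonist comparison. Actg2, Tpm2 and Enah lie slightly higher with either antagonist than with vehicle, Cpe does so with SN-011 and Ighm is lower with H151. The gap to WT was set by the rule.

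The promoters of the members were searched for motifs in the 250 bases before the start of transcription, on both strands, in RefSeq sequences (GRCm38.p6). Of the 65 members 49 had an entry, with 60 promoters. The CArG box, the site of serum response factor in contractile genes, occurred in 2 of the 49 members (4.08%), Ebf3 and Myl9, and in 1.62% of 27025 genes. GGAATG, the core of TEAD sites to which Yap1 is recruited, occurred in 8 members (16.3%) and in 14.4% of all genes. TATAAA occurred in 10 members (20.4%, all genes 14.3%), and TGANTCA, the AP-1 motif, in 3 (6.12%, all genes 7.82%). These shares are descriptions, and a match is no proof of binding. The Myl9 promoter (chr2:156775214-156775463, plus strand) is shown because, among the 9 contractile members with an entry, it alone held a CArG box, in capitals, which begins 161 bases before the start.
Myl9: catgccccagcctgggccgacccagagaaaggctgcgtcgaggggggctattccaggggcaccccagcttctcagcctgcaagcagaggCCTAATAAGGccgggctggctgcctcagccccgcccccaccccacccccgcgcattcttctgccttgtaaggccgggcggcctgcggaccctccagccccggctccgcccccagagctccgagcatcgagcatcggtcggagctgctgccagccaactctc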

How the data were processed

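Per the labels and the methods of the study, polyadenylated RNA was sequenced as read pairs, which the authors trimmed with Trimmomatic and aligned with HISAT2. The counting tool is named as featureCounts in the methods and as HTSeq in the submitters' processing notes, which also name the build mm10. The strand setting is not given in the sources used here. The deposited values are raw counts per gene, 1 file per library, with 54532 Ensembl genes, and 0 columns belonged to other samples. Symbols and positions came from GENCODE M21 (GRCm38, the assembly that mm10 names), in which 54495 identifiers matched and 37 did not. CPM for the rule used the file total.

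The knockout groups were compared by edgeR 4.0.16 (R 4.3.3). Low counts were filtered by filterByExpr (minimum count 10, minimum total 15), and the rest were scaled with TMM and fitted with 1 mean per group over all 8 libraries. The two-sided quasi-likelihood F-test was adjusted over 14591 genes by Benjamini-Hochberg at 0.05. DESeq2 1.42.0 and the edgeR exact test were alternatives. In counts simulated for H151 against vehicle over 14591 genes, 77 of 100 genes changed 2-fold and 95 of 100 changed 4-fold were recovered. The simulation gave every gene the same spread and only these changes. It therefore does not measure how often the smaller changes of most members would be recovered. Motifs and promoters came from RefSeq.

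The members, gene lists and tests were chosen with earlier results of these data known. Genes named with values were the 10 highest in WT, the 10 with the lowest ratio of the highest knockout to the lowest WT value, called members, members on a fixed list and those next to a threshold. Other members were named to show their role, after their values were seen. Roles were assigned from general knowledge. Values of 1 member are not reported here, and it is not drawn in the figures, but it stays in the counts and summaries.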

Additional observations from a re-analysis of the deposited data

How the results depend on the processing

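The number of genes meeting the rule was 50 with CPM from TMM-scaled library sizes, 85 with a CPM minimum of 2 and 37 with a minimum of 10. It was 15 with a ratio limit of 0.4 and 164 with a limit of 0.6. Leaving out 1 library gave 65 to 158, the highest value without WT replicate 2. The TMM factors were 1.035 and 1.037 in WT and 0.973 to 0.999 in the knockout libraries. The rule and the shares of genes below or above WT used the file total. This puts the knockout libraries lower against WT than TMM does. With H151, the edgeR exact test called 1 member (Actg2), and leaving out 1 library gave 0 to 1 (Cxcl12, without Trex1-KO+H151 replicate 2). With SN-011, 0 of the 2 calls remained with a 2-fold minimum, with DESeq2, and with the 6 Trex1-KO libraries alone, and leaving out 1 library gave 0 to 1. With only the 2 groups compared the count was again 2, but Actg2 was no longer called (adjusted p = 0.0909 by edgeR) and Cxcl12 was (adjusted p = 0.0121 by edgeR). Including every gene with at least 1 count gave 3 (Cpe, Actg2 and Cxcl12). When 1 library was left out, the adjusted p-value of edgeR was up to 0.212 for Cpe and 0.573 for Actg2, while the log2 fold change was 0.46 to 0.57 for Cpe and 0.29 to 0.54 for Actg2. Of 49 alternative counts, 35 stayed within 1.5 times. Most of the 35 were 0 members against 0, with H151 or between the antagonists, where such a ratio says little. With SN-011, most alternative counts of called members moved further. For 17 single gene results under 187 alternatives, 171 kept direction and side of the threshold, 13 were no longer past it, 3 newly passed and 0 changed sign. All 13 concerned Cpe or Actg2 with SN-011, the only results past the threshold in the main fit.

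What the replicate numbers stand for is not given in the sources used here, and they were not taken to pair the libraries: same-numbered deviations correlated at 0.19 for H151, -0.01 for SN-011 and -0.02 between the antagonists. With the replicate number as a block, 1 member (Cpe) was called with SN-011 in place of 2, and 0 in the other comparisons. The median SE of the members was 0.22 to 0.23 (log2), compared with 0.13 over all tested genes in each comparison.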
